A study of Mus musculus with 8 samples.

Results

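The genes described here are 45 genes of the DNA replication machinery, chosen by name from 41250 genes in a count table of mouse splenic B cells. They cover origin licensing (6 genes), the replicative helicase and its activators (12), polymerases and primase (8), the sliding clamp and its loader (6), single-stranded DNA binding and Okazaki fragment joining (5), nucleotide supply (3), and chromatin assembly, protein degradation and checkpoint signalling at the fork (5). All 45 passed the filter on low counts. The rule takes genes by name and uses no measured value, but the list was drawn up with earlier results of these data known.

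B cells came from the spleens of wild-type animals and of animals carrying 1 of 3 homozygous deletions, named 3'RR, hs3b-hs4 and 3'PAL, all on the mixed background 129/C58BL/6. The 3'RR is a group of enhancers that lies downstream of the heavy chain genes of immunoglobulin. The 3'RR deletion and the hs3b-hs4 deletion both remove the enhancers hs3b and hs4, which wild-type and 3'PAL deletion cells keep. Cells without CD43 on their surface were taken from a density gradient and either lysed at once, called resting here, or grown for 48 hours with 5 µg/mL lipopolysaccharide (LPS) and passed over a second gradient, called stimulated. LPS is a bacterial cell wall component that drives B cells into division through the receptor TLR4. No library was cultured without LPS, so the effects of LPS, culture and the second gradient cannot be told apart. Stimulation below stands for all of them together. Each combination of genotype and state is 1 library from pooled cells of 4 animals, which gives 8 libraries and no replicate within a genotype and state. For the effect of stimulation the 4 genotypes serve as replicates. Its p-values therefore measure how far the difference between the states varies among pools of different genotype.

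Library totals ran from 17883683 to 28785192 counts. Values are given as CPM, counts scaled to a common library size with TMM factors. No spike-in entry held a count, so every rise or fall below is relative to the other RNA of a library. Amounts per cell were not measured. The B cell markers were present in all 8 libraries, with Ms4a1 between 713 and 937 CPM, Cd79b between 421 and 637 CPM, Cd22 between 269 and 526 CPM, Cd79a between 218 and 472 CPM and Pax5 between 96.5 and 187 CPM. The 3 NK cell markers summed to at most 1.2 CPM. The T cell markers summed to between 14.2 and 43.5 CPM at rest, nearly all from Cd4 and Cd8a, while Cd3d, Cd3e, Cd3g and Trac had at most 0.6 CPM each. In bulk RNA, fewer cells in cycle and less RNA per cycling cell cannot be told apart.

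Replication begins before S phase, when the origin recognition complex, Cdc6 and Cdt1 load the ring-shaped MCM helicase onto DNA. In S phase Cdc45 and the GINS complex bind the loaded ring and turn it into an active helicase, polymerase alpha with primase starts each strand, and polymerases delta and epsilon extend the strands with the clamp PCNA. Many of these genes are known targets of E2F transcription factors, which are held back by pocket proteins of the retinoblastoma family in quiescent cells. Mature splenic B cells are mostly quiescent, and mitogens such as LPS bring them into cycle.

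E2F-like letters, which the choice of genes did not use, stood in a minority of the promoters of the replication genes, and no single variant of them stood in most. RefSeq promoter entries on build GRCm38.p6, reaching from 250 bases before to 50 bases after the start, were found for 37 of the 45 genes. Some genes have several entries, and a gene was counted for a motif if any of its entries held it. E2F-like letters (TTTGGCGC, TTTCGCGC, TTTCCCGC or TTTGCCGC on either strand) stood in promoters of 16 of these 37 genes (43.2%). The same letters stood in promoters of 2.6% of 27025 genes and of 4.7% of the 9704 genes that were expressed and matched. TTTCGCGC was found in promoters of 8 genes, TTTGGCGC of 7, TTTCCCGC of 6 and TTTGCCGC of none. The CCAAT box (CCAAT) stood in promoters of 70.3% of the replication genes, against 43% of expressed genes, and the GC box (GGGCGG) in 70.3% against 67.2%. The CHR element (TTTGAA) stood in 13.5% against 14.5%. These matches describe letters and are not evidence of binding.

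The promoters below are the 6 with E2F-like letters whose genes had the lowest adjusted p for stimulation, together with that of Cdt1, the gene that moved the other way, which was added after its values were seen. Uhrf1 and Mcm7 have 2 entries each and Lig1 has 3. For these the entry with the most matches is shown, and their other entries hold no E2F-like letters. Capitals mark the E2F-like letters on either strand, each sequence is written 5′ to 3′ on the strand of its gene, and in Mcm5 matches on opposite strands overlap. The entries are chr8:75109259-75109558 (plus strand) for Mcm5, chr1:20820263-20820562 (minus) for Mcm3, chr1:191575495-191575794 (minus) for Dtl, chr17:56304063-56304362 (plus) for Uhrf1, chr5:138171834-138172133 (minus) for Mcm7, chr7:13278576-13278875 (plus) for Lig1 and chr8:122567765-122568064 (plus) for Cdt1.
Mcm5: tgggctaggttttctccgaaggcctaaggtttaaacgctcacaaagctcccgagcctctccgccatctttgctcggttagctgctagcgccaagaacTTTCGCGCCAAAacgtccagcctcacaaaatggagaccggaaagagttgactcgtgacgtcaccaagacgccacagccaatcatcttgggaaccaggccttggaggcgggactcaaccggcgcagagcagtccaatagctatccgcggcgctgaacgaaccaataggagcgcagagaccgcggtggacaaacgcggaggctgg
Mcm3: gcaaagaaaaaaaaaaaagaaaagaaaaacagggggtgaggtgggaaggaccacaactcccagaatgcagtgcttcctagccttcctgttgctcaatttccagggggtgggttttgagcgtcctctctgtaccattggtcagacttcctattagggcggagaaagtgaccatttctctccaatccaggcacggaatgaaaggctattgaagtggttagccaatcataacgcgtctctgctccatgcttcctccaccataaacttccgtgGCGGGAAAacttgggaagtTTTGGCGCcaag
Dtl: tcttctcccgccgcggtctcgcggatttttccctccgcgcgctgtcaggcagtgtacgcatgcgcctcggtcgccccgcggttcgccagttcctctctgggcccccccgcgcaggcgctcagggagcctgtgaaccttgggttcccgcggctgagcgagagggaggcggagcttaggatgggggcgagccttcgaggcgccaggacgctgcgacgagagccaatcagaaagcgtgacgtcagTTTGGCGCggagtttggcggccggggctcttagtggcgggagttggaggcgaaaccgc
Uhrf1: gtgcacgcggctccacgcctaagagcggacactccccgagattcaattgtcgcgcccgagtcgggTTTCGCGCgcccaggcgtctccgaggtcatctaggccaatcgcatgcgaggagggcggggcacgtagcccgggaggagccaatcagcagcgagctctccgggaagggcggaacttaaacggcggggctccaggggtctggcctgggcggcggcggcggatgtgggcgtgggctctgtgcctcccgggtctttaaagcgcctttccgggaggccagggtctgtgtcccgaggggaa
Mcm7: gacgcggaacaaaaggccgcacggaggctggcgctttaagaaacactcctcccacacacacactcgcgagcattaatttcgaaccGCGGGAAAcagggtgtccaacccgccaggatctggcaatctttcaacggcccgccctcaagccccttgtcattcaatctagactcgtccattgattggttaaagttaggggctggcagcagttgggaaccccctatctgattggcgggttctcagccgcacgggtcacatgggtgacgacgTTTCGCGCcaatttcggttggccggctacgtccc
Lig1: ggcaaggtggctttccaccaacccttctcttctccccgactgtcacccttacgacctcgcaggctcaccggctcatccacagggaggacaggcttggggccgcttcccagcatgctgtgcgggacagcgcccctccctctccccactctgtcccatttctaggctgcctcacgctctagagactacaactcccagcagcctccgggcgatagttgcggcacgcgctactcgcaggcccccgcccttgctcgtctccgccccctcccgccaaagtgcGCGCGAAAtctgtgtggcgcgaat
Cdt1: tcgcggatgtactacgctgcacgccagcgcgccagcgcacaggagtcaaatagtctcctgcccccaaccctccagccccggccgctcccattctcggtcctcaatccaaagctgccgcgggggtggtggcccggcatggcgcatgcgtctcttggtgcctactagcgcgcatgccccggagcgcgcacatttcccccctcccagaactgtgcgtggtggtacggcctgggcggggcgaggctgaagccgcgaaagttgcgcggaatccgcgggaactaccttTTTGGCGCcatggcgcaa
The 22 matches lay between -185 and 39 bases from the start, and 5 promoters held more than 1. The promoter of Cdt1 holds TTTGGCGC just as those of Mcm3 and Dtl do, although Cdt1 fell on stimulation and the others rose. The 16 genes with these letters had a median log2 change on stimulation of 2.69 and the 21 without them 2.01, which is a description of chosen genes with no test. Rrm2, Mcm10 and Cdc45, the genes with the 3 largest changes, have none of these letters in this window.

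Transcripts of nearly the whole machinery rose on stimulation. Of the 45 genes 44 were higher and 1, Cdt1, was lower in stimulated cells (edgeR quasi-likelihood test with genotype as a term, Benjamini-Hochberg adjusted p under 0.05 over 14789 genes). At this threshold 69.7% of all genes tested were called, 34.5% as higher and 35.2% as lower. The rises were at least 2-fold for 42 genes, a size reached by 16.9% of genes tested. The median log2 change of the 45 genes was 2.30, against -0.02 over all genes tested. In 43 genes all 4 stimulated libraries lay above all 4 resting libraries (30.8% of genes tested did), in Cdt1 all 4 lay below (31.3%), and only Pold1 overlapped. Together the 45 genes took 0.134 to 0.156% of the counts of a resting library and 0.495 to 0.637% of those of a stimulated library.

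**Figure D1:**
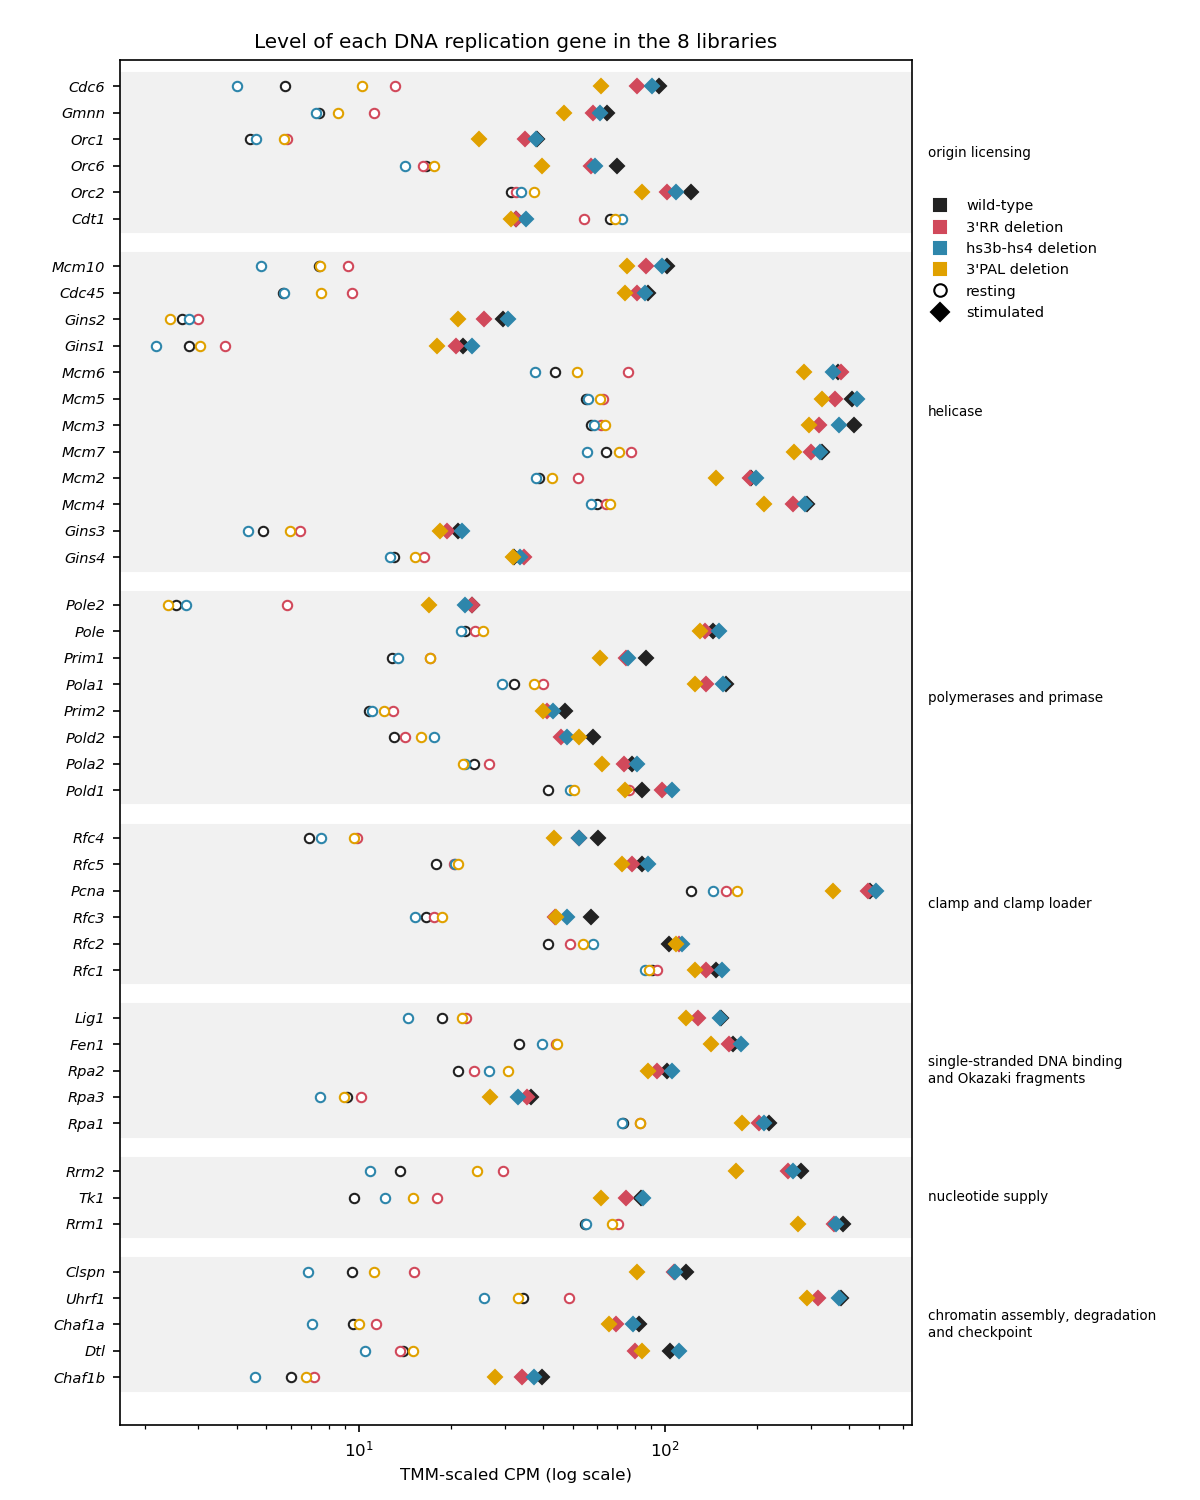
Level of each of the 45 replication genes in TMM-scaled CPM (log axis), with open circles for resting and filled diamonds for stimulated libraries, coloured by genotype and grouped by role. The states are separated for every gene except Pold1, Cdt1 is the gene whose stimulated libraries lie on the left, and 3'PAL deletion is the lowest stimulated library in 41 genes.

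Among the licensing genes, the loaders and their inhibitor rose while Cdt1 fell. In the order wild-type, 3'RR, hs3b-hs4 and 3'PAL deletion, which is kept below, Cdc6, the ATPase that helps to load the MCM ring, stood at 5.76, 13.2, 4.01 and 10.3 CPM in resting cells and at 95.9, 81.1, 90.6 and 61.9 CPM in stimulated cells. Every stimulated library lay well above every resting one, and in proportion to their level the resting libraries were spread more widely than the stimulated ones. The log2 change was 3.39 ± 0.349 (SE; edgeR adjusted p = 0.00013). Gmnn, which encodes geminin, the inhibitor that binds Cdt1 and blocks renewed licensing, went from 7.42, 11.2, 7.24 and 8.57 CPM to 64.6, 58.3, 61.5 and 47 CPM (2.75 ± 0.158, edgeR adjusted p = 1.4e-05).

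Cdt1, the partner of Cdc6 in loading the helicase, moved against the rest. Its resting values were 66.3, 54.6, 72.7 and 69 CPM and its stimulated values 32.8, 32.7, 35.3 and 31.5 CPM. The stimulated libraries agreed within a narrow range and none reached the lowest resting library. The fall was -0.98 ± 0.0896 on the log2 scale (edgeR adjusted p = 7.1e-05). The ratio of Cdt1 to Gmnn in CPM per kilobase of exon was between 3.26 and 6.72 in the resting libraries and between 0.34 and 0.45 in the stimulated libraries. With TPM, the authors' length-scaled transcript estimates, this ratio went from between 1.85 and 3.9 to between 0.195 and 0.263. Both measures put Cdt1 above Gmnn in every resting library and below it in every stimulated library.

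The 3 measured subunits of the origin recognition complex in this set rose by different amounts. Orc1, the largest subunit, had the largest change (2.70 ± 0.18, edgeR adjusted p = 2.2e-05), from 4.41 to 5.86 CPM at rest to 24.7 to 38.4 CPM. Orc6 (1.79 ± 0.16) and Orc2 (1.62 ± 0.131) started from a higher level, at 14.2 to 17.6 and 31.4 to 37.5 CPM in resting cells. The remaining subunits of the complex, named here to complete it after their values were seen, changed less, with 0.53 ± 0.0955 for Orc3, 0.25 ± 0.083 for Orc4 and 0.37 ± 0.124 for Orc5 (edgeR adjusted p = 0.0019, 0.03 and 0.03).

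All 12 helicase genes rose, with a median log2 change of 2.60. Among the factors that activate the ring, Mcm10, Cdc45, Gins2 and Gins1 had larger estimates than any of the 6 ring genes, and Gins3 and Gins4 had smaller ones, differences between genes that were not tested. Mcm10, a factor needed to start the assembled helicase, went from 7.42, 9.21, 4.79 and 7.46 CPM to 102, 87.1, 98 and 75.2 CPM (3.66 ± 0.194, edgeR adjusted p = 1.1e-05). Cdc45, which bridges the MCM ring and GINS, went from 5.66, 9.53, 5.73 and 7.55 CPM to 88.4, 81.3, 86.4 and 74.1 CPM (3.55 ± 0.173, edgeR adjusted p = 8.7e-06). In both genes the 4 stimulated values lay close together and far above the resting ones.

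The 6 genes of the MCM ring were already present at rest. Mcm5, which had the lowest adjusted p among them, stood at 55.4, 62.8, 56.1 and 61.6 CPM in resting and at 409, 361, 425 and 327 CPM in stimulated cells (2.68 ± 0.119, edgeR adjusted p = 7e-06). The changes of the ring genes ran from 2.07 ± 0.126 (Mcm4) and 2.08 ± 0.127 (Mcm2) through 2.18 ± 0.129 (Mcm7) and 2.52 ± 0.124 (Mcm3) to 2.77 ± 0.175 (Mcm6). These differences between genes were not tested. Per kilobase of exon the mean levels of the 6 genes lay within 1.54-fold of each other at rest (Mcm6 lowest, Mcm4 highest) and within 2.06-fold after stimulation (Mcm2 lowest, Mcm5 highest). TPM gave wider spreads of 3.92-fold and 2.91-fold, with Mcm2 lowest and Mcm7 highest in both states, so that the order of the ring genes depends on how length and transcripts are counted.

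The 4 GINS subunits were less uniform. Gins2 had the lowest adjusted p of all 45 genes, with 2.65, 3, 2.8 and 2.42 CPM at rest and 29.7, 25.7, 30.8 and 21.2 CPM after stimulation (3.29 ± 0.124, edgeR adjusted p = 4.9e-06). Gins1 followed with 2.85 ± 0.178 and Gins3 with 1.90 ± 0.155. Gins4 changed least of the 12 helicase genes, from 12.7 to 16.4 CPM to 31.9 to 34.6 CPM (1.21 ± 0.0986, edgeR adjusted p = 4.5e-05). Per kilobase of exon the 4 subunits were spread over 15.9-fold at rest and 3.71-fold after stimulation, with Gins2 lowest and Gins4 highest in both states. In TPM the spreads were 4.99-fold and 3.06-fold. Exons of Gins2 overlap those of Gse1 on the opposite strand over 67.3% of its exonic length, and the sources used here do not say whether counting used the strand, so its CPM per kilobase is uncertain.

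All 8 polymerase and primase genes rose, with Pold1 the weakest. Pole, the catalytic subunit of the leading strand polymerase epsilon, went from 22.2, 24, 21.6 and 25.5 CPM to 144, 135, 150 and 130 CPM (2.58 ± 0.1, edgeR adjusted p = 5.2e-06), with little spread among the 4 libraries of either state. Its partner Pole2 changed by 2.74 ± 0.211. Pold1, the catalytic subunit of the lagging strand polymerase delta, stood at 41.5, 76.6, 49.2 and 50.5 CPM at rest and at 84.1, 98.3, 106 and 74.3 CPM after stimulation. The resting 3'RR deletion library lay above the stimulated 3'PAL deletion library, the only overlap of states among the 45 genes, and within each genotype Pold1 was higher after stimulation. The log2 change was 0.76 ± 0.137 (edgeR adjusted p = 0.002). Pold2, the accessory subunit of the same polymerase, changed by 1.75 ± 0.124.

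Pold1 stood 4.29 to 7.34 times above Pole per kilobase of exon in the resting libraries and 1.31 to 1.67 times above it in the stimulated libraries. In TPM the ratio went from 4.93 to 7.83 at rest to 1.32 to 1.64. The subunits of the priming complex rose more evenly. Prim1, the catalytic primase subunit, changed by 2.30 ± 0.153, Pola1, the catalytic subunit of polymerase alpha, by 2.05 ± 0.136, Prim2 by 1.87 ± 0.105 and Pola2 by 1.64 ± 0.0961 (edgeR adjusted p from 1.3e-05 to 2.2e-05).

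The clamp and its loader had the smallest median log2 change of the 7 roles, 1.53, and all 6 genes rose. Pcna, the ring that tethers polymerases to DNA, was the most abundant replication gene per kilobase in both states. It stood at 122, 158, 144 and 172 CPM in resting and 468, 462, 490 and 354 CPM in stimulated cells (1.57 ± 0.151, edgeR adjusted p = 8.9e-05). The lowest stimulated value, in 3'PAL deletion cells, was paired with the highest resting value in the same genotype. Among the subunits of replication factor C, which opens the clamp, Rfc4 changed most (2.62 ± 0.164) and Rfc1 least. Rfc1, the large subunit, went from 86.4 to 94.7 CPM to 126 to 154 CPM (0.64 ± 0.0877, edgeR adjusted p = 0.00051), and Rfc2 changed by 1.11 ± 0.087 and Rfc5 by 2.01 ± 0.0984. A part of the exons of Rfc4 (12.6%) overlaps Eif4a2 on the opposite strand, which had up to 18883 counts in a library, against at most 1714 for Rfc4.

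The 5 genes of single-stranded DNA binding and Okazaki fragment joining rose by a median of 1.94. Lig1, the ligase that seals Okazaki fragments, led with 18.7, 22.5, 14.5 and 21.7 CPM at rest and 153, 128, 152 and 117 CPM after stimulation (2.84 ± 0.173, edgeR adjusted p = 1.7e-05). Fen1, the nuclease that removes flaps before sealing, changed by 2.00 ± 0.122. The 3 subunits of replication protein A, which coats single-stranded DNA, changed by 1.94 ± 0.127 (Rpa2), 1.88 ± 0.117 (Rpa3) and 1.38 ± 0.104 (Rpa1). Their mean levels per kilobase lay within 1.77-fold of each other at rest and within 1.25-fold after stimulation.

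Among the genes of nucleotide supply, Rrm2 had the largest change of all 45. Rrm2, the small subunit of ribonucleotide reductase, which makes deoxynucleotides, stood at 13.7, 29.7, 10.9 and 24.4 CPM at rest and at 279, 253, 262 and 171 CPM after stimulation. The resting values fell into a higher pair, 3'RR and 3'PAL deletion, and a lower pair, and the stimulated value was lowest in 3'PAL deletion cells. The log2 change was 3.69 ± 0.33 (edgeR adjusted p = 6.6e-05). The large subunit Rrm1 changed by 2.47 ± 0.146, from 55 to 70.4 CPM to 272 to 382 CPM. Per kilobase of exon, Rrm1 stood 1.64 to 3.52 times above Rrm2 at rest and at 0.951 to 1.11 times its level after stimulation (in TPM, 1.17 to 2.26 and 0.645 to 0.755). Tk1, the thymidine kinase of the salvage route in cycling cells, went from 9.65, 18, 12.2 and 15.1 CPM to 83.8, 75, 85.2 and 61.8 CPM (2.49 ± 0.199, edgeR adjusted p = 4.1e-05).

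The genes of chromatin assembly, degradation and checkpoint had the highest median log2 change of the 7 roles, 2.97. Uhrf1, which reads newly replicated, hemimethylated DNA for the maintenance methyltransferase, stood at 34.4, 48.7, 25.6 and 33.1 CPM at rest and at 378, 316, 372 and 292 CPM after stimulation (3.29 ± 0.192, edgeR adjusted p = 1.5e-05). Clspn, the adaptor that passes the stalled fork signal to the kinase Chk1, changed by 3.30 ± 0.214. Chaf1a (2.97 ± 0.158) and Chaf1b (2.51 ± 0.172) encode subunits of chromatin assembly factor CAF-1, which places histones on new DNA. Dtl, the ubiquitin ligase adaptor that targets Cdt1 for degradation in S phase, went from 14, 13.7, 10.5 and 15.1 CPM to 104, 80, 111 and 84.1 CPM (2.83 ± 0.163, edgeR adjusted p = 1.4e-05).

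**Figure D2:**
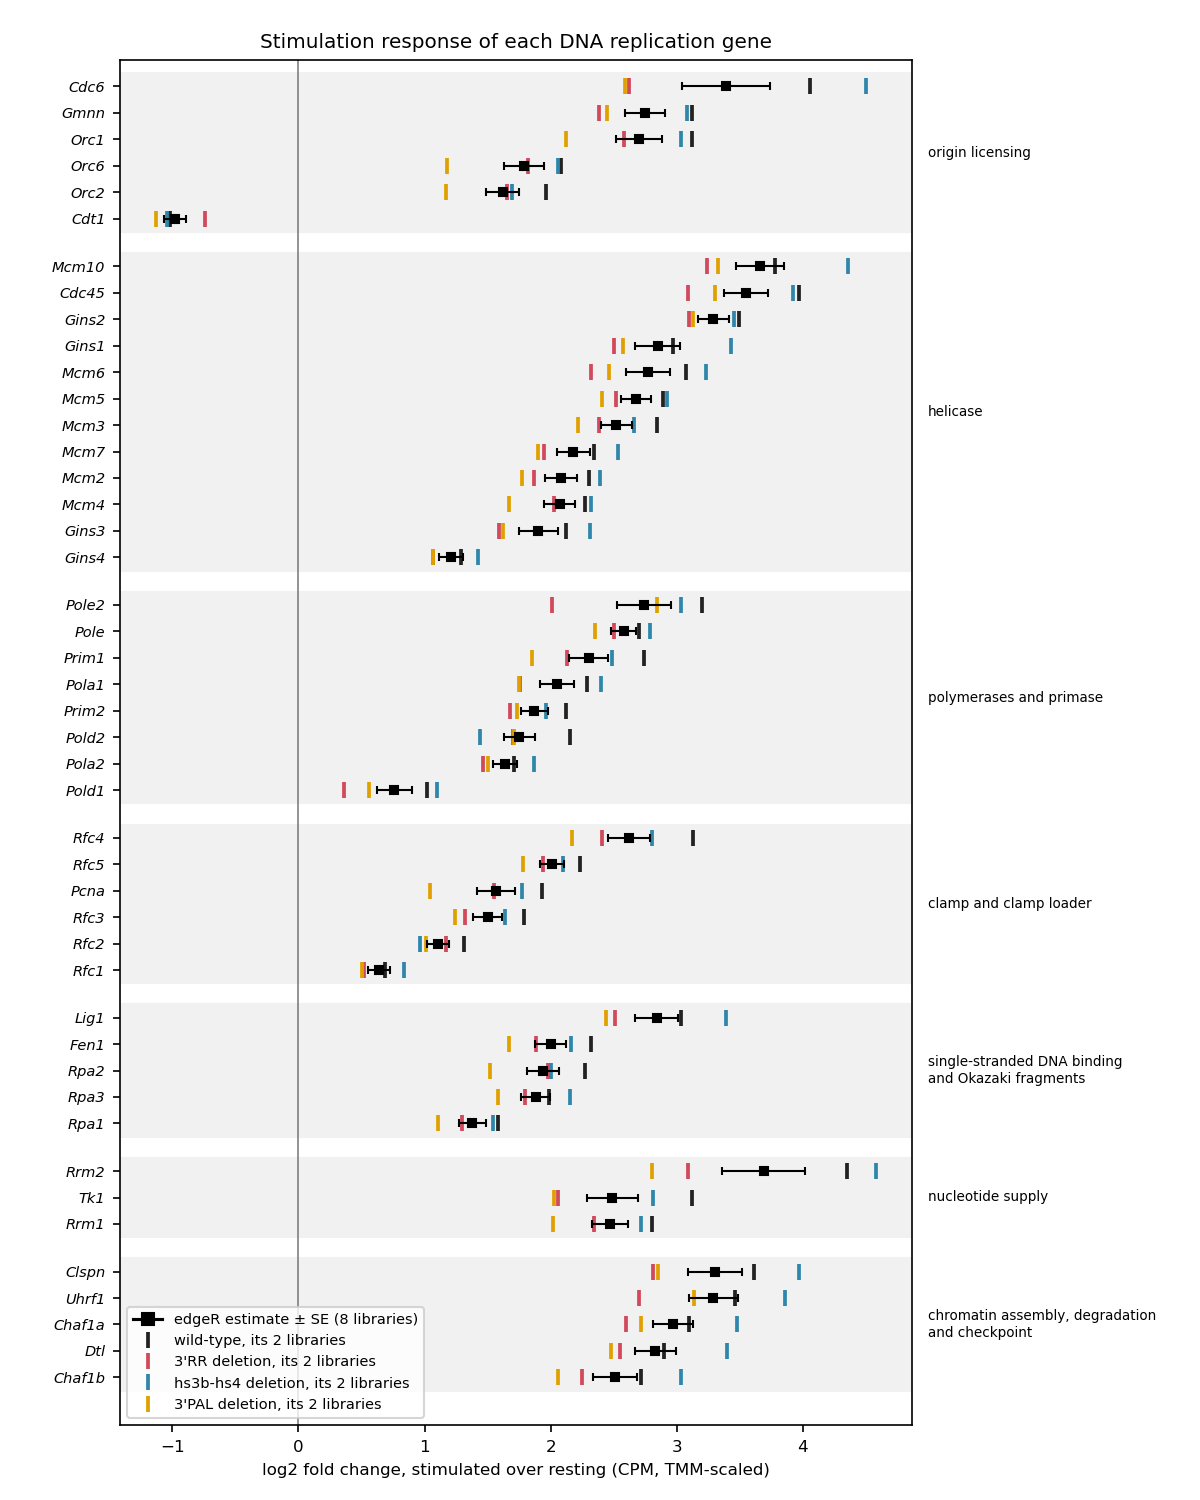
Log2 change of each replication gene from resting to stimulated cells, with black squares and bars for the edgeR estimate ± SE over all 8 libraries and coloured ticks for the ratio of the 2 libraries of each genotype. Cdt1 alone lies left of 0, Rrm2, Mcm10 and Cdc45 lie farthest right, and the ticks of 3'RR and 3'PAL deletion mostly lie left of those of wild-type and hs3b-hs4 deletion.

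Related genes outside the 45 moved the same way in most cases. In 5 lists of 70 genes, 58 rose, 8 fell and 4 did not pass, with a median log2 change of 1.44. Of 27 other replication factors 25 rose, with the lowest adjusted p for the fork protein Timeless (2.13 ± 0.0807, edgeR adjusted p = 5e-06), Recql4, Wdhd1 and Rnaseh2b. The 2 that fell were Pold4, the smallest polymerase delta subunit (-0.43 ± 0.111, edgeR adjusted p = 0.01), and the fork protein Donson (-0.32 ± 0.0965, edgeR adjusted p = 0.02).

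Of 13 other nucleotide supply genes 9 rose and 3 fell. Among the rises were Shmt1 (3.29 ± 0.17, edgeR adjusted p = 1e-05), Dut, which removes dUTP (3.01 ± 0.164), and Tyms, thymidylate synthase (3.49 ± 0.215). The 3 falls were Tk2, the mitochondrial thymidine kinase (-2.50 ± 0.159, edgeR adjusted p = 2e-05), Rrm2b, the p53-regulated small subunit of ribonucleotide reductase (-0.90 ± 0.0851, edgeR adjusted p = 8.5e-05), and Samhd1, which degrades deoxynucleotides (-0.46 ± 0.139, edgeR adjusted p = 0.02). Tk1 and Rrm2 rose while Tk2 and Rrm2b, which perform the same reactions, fell. Cmpk2 did not pass (-0.24 ± 0.37, edgeR adjusted p = 0.58).

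All 7 other histone chaperones and methylation genes rose, led by Hells (3.51 ± 0.201), Dnmt1, the maintenance methyltransferase (1.89 ± 0.111), Asf1b and Nasp. Of 13 E2F and pocket protein genes 9 rose, with the lowest adjusted p for Tfdp1, the dimerisation partner of E2F proteins (2.98 ± 0.131, edgeR adjusted p = 7e-06), E2f3, Rbl1 and E2f4. Tfdp2 (-1.63 ± 0.302) and Rbl2, the pocket protein p130 of quiescent cells (-0.39 ± 0.0743, edgeR adjusted p = 0.0024), fell, and Rb1 (-0.02 ± 0.101) and E2f5 (0.03 ± 0.142) did not pass. Tfdp2 stood at 26.6, 77.3, 39 and 101 CPM in the resting libraries, in the same order as the summed erythroid markers described below, and at 16.6 to 18.5 CPM in the stimulated ones. The part of red cells in the fall of Tfdp2 was not tested. Of 10 genes of S phase kinases, cyclins and their regulators 8 rose, among them Cdc25a, Cdk2, Ccne1 and Ccna2 (3.50 ± 0.343). The 8 include the inhibitor Cdkn1a (1.17 ± 0.172, edgeR adjusted p = 0.00071), named after its values were seen. Cdkn1b, the inhibitor p27 (-0.56 ± 0.101, edgeR adjusted p = 0.0019), fell and Cdkn1c did not pass.

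Levels of different genes were compared per kilobase of the exonic length in the deposited table. After stimulation Pcna stood at 185 ± 25.4 CPM per kilobase (SD, n = 4), above Mcm5 at 111 ± 13.1, and their ranges did not overlap (147 to 204 and 95.6 to 124). Mcm3 (93.3 ± 13.9), Rrm2 (87 ± 17.4), Rrm1 (85.9 ± 12.2) and Uhrf1 (79.8 ± 9.91) followed, and these neighbours overlapped in range. At the lower end were Gins2 (6.55 ± 1.06), Chaf1b (6.96 ± 1.01) and Prim2 (7.23 ± 0.516). At rest the order was Pcna (62.1 ± 8.78), Rfc2 (33.5 ± 4.79) and Cdt1 (30 ± 3.58), and the lowest were Gins2 (0.663 ± 0.0599) and Mcm10 (0.939 ± 0.237). The order depended on the measure. In TPM Pcna was first in both states, but after stimulation Mcm7 (180 TPM) took the second place and Mcm5 (127 TPM) the sixth, and the lowest were Gins3 (9.98 TPM), Pole2 (15.3 TPM) and Orc1 (17.9 TPM). At rest Mcm7 and Rfc2 followed Pcna in TPM, Cdt1 took the sixth place, and Pole2 (2.5 TPM) and Gins2 (2.58 TPM) were lowest.

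The median rise was smaller in 3'RR and 3'PAL deletion cells than in the other genotypes, a comparison without replicates whose size depended on counting and scaling. In each genotype 44 genes were higher and Cdt1 lower after stimulation. The median ratio of stimulated to resting was 6.5-fold in wild-type, 5.79-fold for the hs3b-hs4 deletion, 4.09-fold for the 3'RR deletion and 3.73-fold for the 3'PAL deletion. In the same order these are median log2 ratios of 2.70, 2.53, 2.03 and 1.90. With the estimated transcript counts summed per gene they were 2.43, 2.43, 2.10 and 1.86, so that wild-type and hs3b-hs4 deletion no longer differed and 3'RR deletion lay closer to both. With library size alone they were 2.57, 2.44, 1.92 and 1.97, so that 3'RR and not 3'PAL deletion had the smallest median. Mki67, a marker of dividing cells, and the red cell genes Klf1 and Slc4a1 were highest in the resting libraries of the same 2 genotypes, with Mki67 at 376 and 373 CPM in 3'RR and 3'PAL deletion against 132 CPM in wild-type and 98.1 CPM in hs3b-hs4 deletion cells. In the same resting libraries the summed erythroid markers were split otherwise. The hs3b-hs4 deletion (10808 CPM) lay nearer to 3'RR deletion (13673 CPM) than to wild-type (3207 CPM), and 3'PAL deletion had 21798 CPM. The part of dividing and red cells in the smaller rise was not tested. With TMM scaling the smallest of the 4 log2 ratios was that of 3'PAL deletion in 29 genes and that of 3'RR deletion in 14. The largest was that of hs3b-hs4 deletion in 23 genes and of wild-type in 21. These positions were not counted over all genes. The median log2 ratio of all genes tested was -0.02 in wild-type, -0.03 in hs3b-hs4, -0.02 in 3'RR and 0.03 in 3'PAL deletion cells. Whether genotypes differ in their response cannot be tested with 1 library for each genotype and state.

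Over both states together, no replication gene passed the test between a mutant and wild type. The edgeR quasi-likelihood test with state as a term called 0 of 45 genes for the 3'RR deletion (1.88% of genes tested were called), 0 for the hs3b-hs4 deletion (0.135%) and 0 for the 3'PAL deletion (0.514%), and DESeq2 also called 0 in each. An unadjusted p under 0.05 was reached by 2022, 1316 and 1412 of the 14789 genes tested for the 3'RR, hs3b-hs4 and 3'PAL deletions. Of the 45 genes, 1 reached it for the 3'RR deletion, 1 for the hs3b-hs4 deletion and 0 for the 3'PAL deletion. These were Pold1 in 3'RR deletion cells (log2 change 0.56 ± 0.193, edgeR adjusted p = 0.26) and Rfc2 in hs3b-hs4 deletion cells (0.32 ± 0.122, edgeR adjusted p = 0.51). The standard errors of the 45 genes ran from 0.122 to 0.457 in the 3'RR deletion test. This fit takes the change to be the same in both states. In 3'RR deletion cells, however, 42 of the 45 genes lay above wild type at rest and 40 below it after stimulation. In 3'PAL deletion cells 39 lay above it at rest and 44 below it after stimulation. Over all genes with at least 10 CPM the median ratio to wild type at rest was 1.04 (3'RR deletion) and 1.05 (3'PAL deletion). After stimulation it was 0.997 and 0.979. The share of all genes on each side was not counted.

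Cells lacking hs3b and hs4 (3'RR and hs3b-hs4 deletion) were also compared with cells keeping them, within each state. In stimulated cells 0 of 45 genes were called (0% of genes tested) and in resting cells 0 of 45 (0%), by edgeR with 4 groups of 2 libraries. At an unadjusted p under 0.05 there were 0 of the 45 in either state. Over all 14789 genes tested there were 394 in stimulated and 869 in resting cells. DESeq2 called 0 of the 45. The median log2 difference of the 45 genes was 0.09 in stimulated and 0.04 in resting cells, with median standard errors of 0.201 and 0.208.

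In stimulated cells nearly all replication genes were lowest in the 3'PAL deletion library. Their summed level was 4982 CPM there, against 6462 CPM in wild-type, 5874 CPM in 3'RR deletion and 6372 CPM in hs3b-hs4 deletion cells. The median ratio to wild type was 0.771 in 3'PAL deletion cells, against 0.979 over all genes with at least 10 CPM, and 44 of 45 ratios were below 1. The exception was Rfc2 (109 against 103 CPM). The 3'PAL deletion library was the lowest of the 4 in 41 of 45 genes (36.3% of all genes with at least 10 CPM), and in 35 to 42 genes with the 3 other ways of scaling or counting. The median ratio was 0.913 in 3'RR deletion and 0.985 in hs3b-hs4 deletion cells. The 3 ratios rest on 1 common wild-type library, and none has a replicate.

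By a size rule of at least 1.5-fold on log2(CPM + 1), for genes reaching 10 CPM in 1 of the libraries compared, 4 replication genes were lower in stimulated 3'PAL deletion than in wild-type cells (2.96% of all genes). They were Orc6 (39.7 against 69.8 CPM; ratio 0.569, 95% counting interval 0.528 to 0.612), Rrm2 (0.612, 0.591 to 0.635), Orc1 (0.644, 0.585 to 0.709) and Cdc6 (0.646, 0.608 to 0.686). The intervals cover counting error only. Orc2 was next with a ratio of 0.692. The other subunits of the origin recognition complex lay nearer to wild type, with 82.4 against 94.1 CPM for Orc3, 49.9 against 61.1 CPM for Orc4 and 19 against 20.8 CPM for Orc5. At the other end lay Gins4 (0.996), Cdt1 (0.962) and Pole (0.9). No gene met the size rule in stimulated 3'RR deletion (5.38% of all genes higher, 2.48% lower) or hs3b-hs4 deletion cells (1.76% and 1.88%). The extremes there were Rfc3 (0.762) and Pold1 (1.17) in 3'RR deletion and Pold2 (0.818) and Pold1 (1.26) in hs3b-hs4 deletion cells.

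The listed markers of division were also lowest in the stimulated 3'PAL deletion library, but by different amounts. The proliferation marker Mki67 stood at 1561, 1677, 1621 and 1539 CPM in the stimulated libraries, while Top2a stood at 1208, 1179, 1136 and 908 CPM, Ccnb1, the mitotic cyclin B1, at 216, 211, 194 and 137 CPM and Cdk1 at 129, 122, 121 and 93.2 CPM. The last 3 were clearly lower in 3'PAL deletion cells, like most replication genes, while Mki67 was lowest there but nearly level. The plasma cell markers summed to 546, 1690, 956 and 1158 CPM. Their part in the result was not tested.

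**Figure D3:**
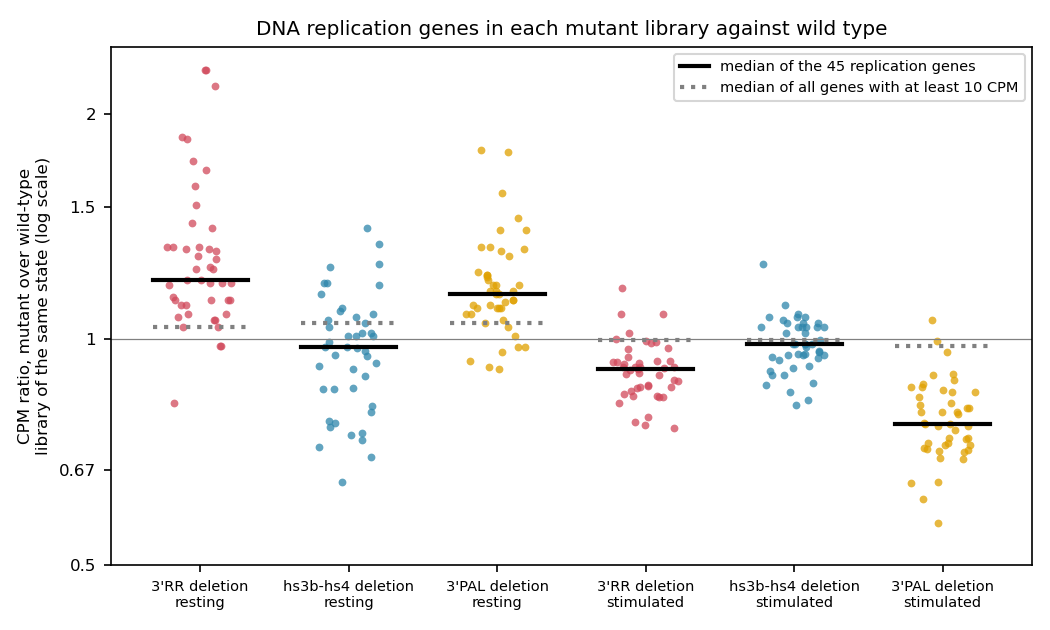
Ratio of each replication gene in a mutant library to the wild-type library of the same state (log axis), with 1 point for each gene, a black bar at the median of the 45 genes and a dotted bar at the median of all genes with at least 10 CPM. The points of 3'PAL deletion lie mostly below 1 in stimulated cells, with a median of 0.771, and those of 3'RR deletion mostly above 1 in resting cells, with a median of 1.2.

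In resting cells the order of the libraries was different, and 3'RR deletion was highest. The summed level of the 45 genes was 1252 CPM in wild-type, 1541 CPM for the 3'RR deletion, 1266 CPM for the hs3b-hs4 deletion and 1467 CPM for the 3'PAL deletion. The median ratio to wild type was 1.2 for the 3'RR deletion (1.04 over all genes with at least 10 CPM), 0.976 for the hs3b-hs4 deletion (1.05) and 1.15 for the 3'PAL deletion (1.05). These ratios have 1 resting wild-type library in common and no replicate. The 3'RR deletion library was the highest of the 4 in 30 of 45 genes (30.8% of all genes) and hs3b-hs4 deletion the lowest in 24 (21.9%). With library size alone the 3'PAL deletion median over all genes moved from a log2 ratio of CPM of 0.07 to -0.12, and that of the 45 genes from 0.21 to 0.03, so the small excess of that library depends on the scaling, while the distance between both medians hardly moved.

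At least 1.5-fold higher in resting 3'RR deletion than wild-type cells were 6 of the 36 replication genes with enough counts (9.22% of all genes), and none was lower (3.06%). These were Cdc6 (13.2 against 5.76 CPM; ratio 2.29, 95% counting interval 1.85 to 2.86), Rrm2 (2.18, 1.89 to 2.51), Tk1 (1.86, 1.57 to 2.21), Pold1 (1.85, 1.7 to 2), Mcm6 (1.73, 1.59 to 1.87) and Clspn (15.2 against 9.55 CPM). In resting 3'PAL deletion cells Rrm2 (1.79, 1.54 to 2.07), Cdc6 (1.78, 1.42 to 2.25) and Tk1 (1.57, 1.31 to 1.88) met the rule as higher (5.14% of all genes) and none as lower (3.04%). None met it in resting hs3b-hs4 deletion cells (6.04% of all genes higher, 3.12% lower), where the ratios ran from 0.745 for Uhrf1 to 1.41 for Rfc2 among genes with enough counts. Cdt1, the gene that falls on stimulation, had the lowest ratio in resting 3'RR deletion cells (0.823, 0.764 to 0.887).

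The resting libraries also differed in RNA of other and of dividing cells. Mki67 stood at 132, 376, 98.1 and 373 CPM, in the same order of high and low libraries as Rrm2 and Cdc6. The erythroid markers, 10 of 11 measured, summed to 3207, 13673, 10808 and 21798 CPM. Among them Klf1, a transcription factor of red cell precursors, stood at 0.727, 12, 1.09 and 10.3 CPM and Slc4a1, the red cell anion exchanger, at 16.6, 373, 58 and 437 CPM, also highest in 3'RR and 3'PAL deletion cells. The haemoglobin gene Hba-a1 stood at 1078, 4442, 3554 and 6714 CPM, with hs3b-hs4 deletion near 3'RR deletion and well above wild-type. The 9 monocyte and macrophage markers summed to 388, 1268, 580 and 293 CPM, highest in 3'RR deletion cells. In stimulated libraries the erythroid sum was 425 to 560 CPM, of which Tfrc, the transferrin receptor of dividing cells, made 316 to 424 CPM, and Slc4a1 and Klf1 were at most 0.389 and 0.149 CPM. The part of these cells in the resting values was not tested.

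**Figure D4:**
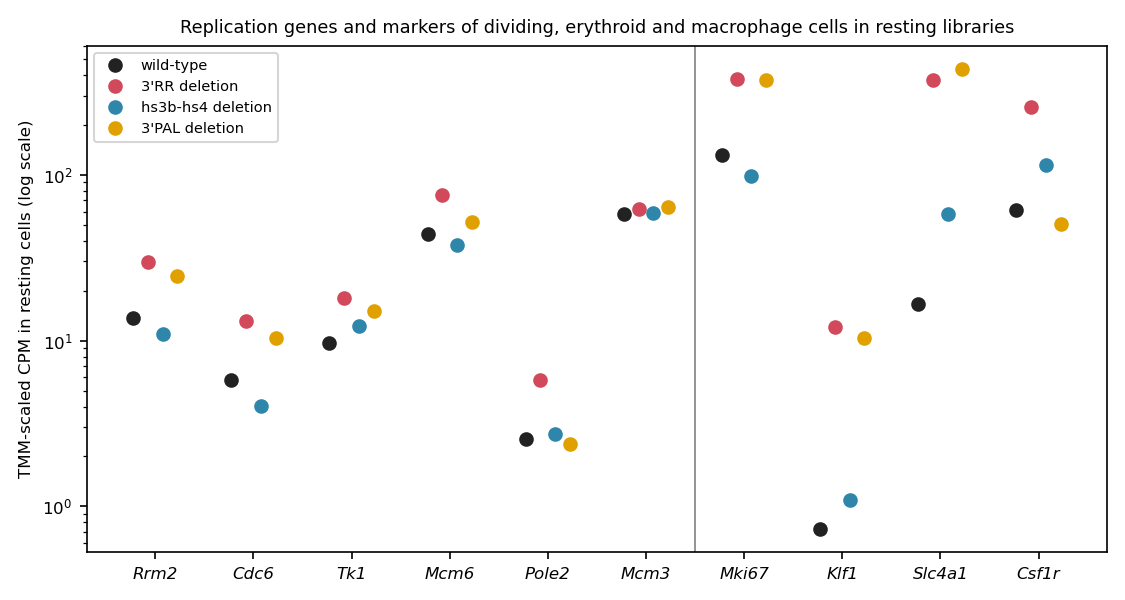
Level of 6 replication genes (left of the line) and 4 markers (right) in the resting libraries, in TMM-scaled CPM on a log axis, with 1 point for each genotype. Rrm2, Cdc6 and Tk1 are highest in 3'RR and 3'PAL deletion cells, as are Mki67, Klf1 and Slc4a1, whereas Csf1r, a macrophage receptor, is highest in 3'RR deletion and lowest in 3'PAL deletion cells. The summed erythroid markers, not drawn, were also high in hs3b-hs4 deletion (10808 CPM) against wild-type cells (3207 CPM).

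The transcript table allowed the forms of each gene to be separated. Of 207 transcripts of the 45 genes 197 were found in the GENCODE vM21 annotation, and 30 genes with at least 1 TPM in every library had both protein-coding and other transcript types, such as retained introns. The share of TPM in the other types had a median of 28.7% at rest and 14.2% after stimulation over these 30 genes, against 30.5% and 22.2% over 5830 genes. In 19 of the 30 all 4 stimulated libraries lay below all 4 resting ones (37.8% of the 5830 genes did so), and in 1, Gins2, they lay above.

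Tk1 had 65, 62.2, 65.2 and 57.4% of its TPM in such forms at rest and 21.9, 19.7, 22.6 and 24.7% after stimulation. Clspn had 72.6, 52, 74.4 and 61.1% at rest and 17.5, 20.6, 18.6 and 26.6% after stimulation. Rfc4 went from 55.2, 34.5, 40.6 and 53.6% to 7.39, 8.27, 5.58 and 5.26%. In these genes the states did not overlap, and the lowest resting share of Clspn and of Rfc4 was that of 3'RR deletion cells. Counted on coding transcripts alone, the mean level of Tk1 went from 10.4 to 58.5 TPM and that of Clspn from 3.23 to 29.1 TPM. The shares are estimates from reads that several transcripts can share, and their depth is not given in the TPM table.

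**Figure D5:**
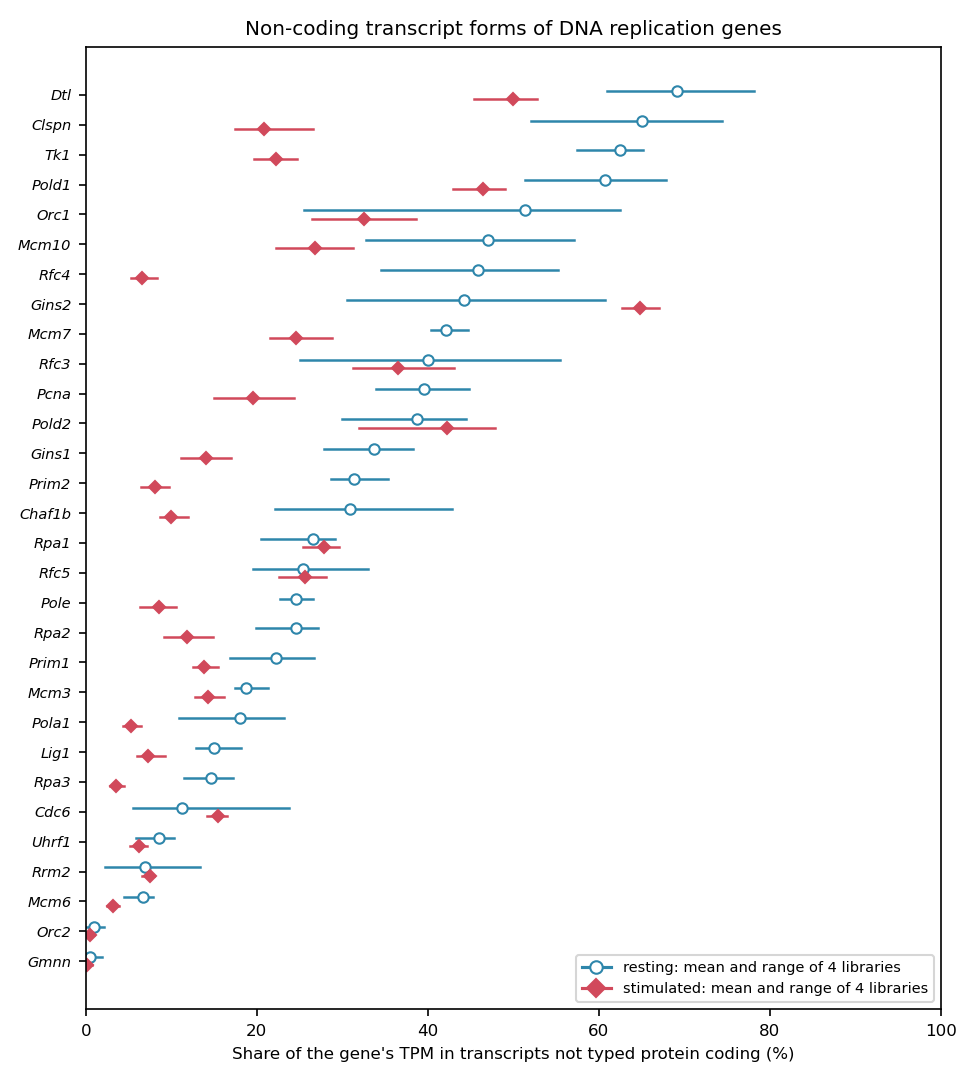
Share of each gene's TPM in transcripts that GENCODE vM21 does not type as protein coding, for the 30 replication genes with both types, as the mean and range of the 4 resting (open circles) and 4 stimulated libraries (filled diamonds). Ranges are separated with the stimulated share lower in 19 genes, such as Tk1, Clspn and Rfc4, and higher in Gins2.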

How the data were processed

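RNA of splenic B cells from 4 genotypes, resting or stimulated, was depleted of ribosomal RNA and made into stranded libraries, per the labels' protocols. The authors deposited raw counts per gene symbol and estimated counts and TPM (length-scaled abundance) per transcript. Per the submitters' processing notes, the tools were STAR 2.4.0a, featureCounts of Subread 1.4.6-p1 and kallisto 0.42.3, with build GRCm38 (mm10). SAMtools and bedtools are also named there. The sources used here do not give the annotation, the strand setting or the unit counted (reads or fragments). In the deposited TPM table the names of some annotation columns did not match their content. These were read by content, and the library columns by their titles.

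An unnamed entry with 0.00621 to 0.0342% of the counts was removed, as were 92 spike-in entries without a count. Counts were tested with edgeR 4.0.16 in R 4.3.3 (TMM factors 0.943 to 1.08, filterByExpr, quasi-likelihood test, Benjamini-Hochberg adjustment over 14789 genes, threshold 0.05). Stimulation and each mutant were tested in a single additive fit on genotype and state (residual df 3, biological variation coefficient 16%). Enhancer-lacking and enhancer-keeping genotypes were tested as 4 groups of 2 libraries (residual df 4, 25.8%). The standard error of an edgeR estimate was taken as its absolute log2 change divided by the square root of the F statistic. Fits were tried on simulated counts with large known changes. A minimum of recovered genes was required for stimulation and the 3'RR deletion, but not for the comparison of enhancer-lacking and enhancer-keeping cells. Ratios between single libraries have no test. Their 95% intervals are exact conditional binomial intervals for counting error only. Libraries of this depth put 3 counts at 0.104 to 0.168 CPM. DESeq2 1.42.0, estimated counts summed per gene and rounded, other scalings, no filter, other pseudocounts and folds, and leaving out each library were tried as alternatives.

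The genes and lists were chosen with earlier results of these data known. All 45 genes were named by role. Of each other list, at most 4 with the lowest adjusted p in each direction were named, and every gene against its list's majority. Within a state, the 5 largest ratios in each direction could be named. Promoter sequences and coordinates are RefSeq entries on GRCm38.p6. The 8 genes without an entry were Gmnn, Mcm4, Gins1, Gins2, Gins4, Prim2, Pole and Rfc2. Of the marker symbols, Epb42 and Adgre1 were matched through synonyms. Some genes of the fixed lists are not reported here by name.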

Additional observations from a re-analysis of the deposited data

How the results depend on the processing

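The 44 rises and the fall of Cdt1 on stimulation stayed called in all 14 alternatives, with adjusted p up to 0.0091 (Pold1), and Cdt1 between -1.08 and -0.89. A further requirement of a 2-fold change left 5470 of 10308 genes called for stimulation. Calls over all genes between genotypes depended more on the settings, while no replication gene was called in any of them. For the 3'RR deletion 278 genes were called, 657 without a filter, 531 with DESeq2 and 71 to 360 with 1 library left out (fewest without resting 3'RR deletion). For the hs3b-hs4 deletion 20 were called, 189 without a filter, 180 with DESeq2, 35 with estimated counts and 1 to 43 with 1 library left out (fewest without resting hs3b-hs4 deletion). For the 3'PAL deletion 76 were called, 313 without a filter, 257 with DESeq2 and 3 to 110 with 1 library left out (fewest without resting wild type). For cells lacking hs3b and hs4, stimulated, 0 became 1 with library size alone, 8 without a filter and 7 with DESeq2. At rest 0 became 71 without a filter and 69 with DESeq2. At a fold of 2 the replication genes past the size rule were 2 in place of 6 (resting 3'RR deletion, higher), 0 in place of 3 (resting 3'PAL deletion, higher) and 0 in place of 4 (stimulated 3'PAL deletion, lower). With library size alone the resting 3'PAL deletion had 1 gene in place of 3 and a median log2 ratio of 0.02 in place of 0.19 on log2(CPM + 1). The median level of the 45 genes was 6.33 CPM per kilobase at rest and 25.2 after stimulation, or 13.6 and 49.2 TPM, which are other units. In all, 300 of 333 alternatives to the main values kept direction and call or stayed near the value. The cause of the other changes was not tested. The order of libraries and the transcript types were examined after seeing the data. The stimulation test pairs the resting and stimulated library of each genotype through its genotype term, and without that term 9423 genes were called in place of 10308. The labels give no replicate numbers for a further block. Except for Cdt1, these genes had fewer counts at rest than after stimulation, so their resting ratios carry wider counting intervals. For Cdt1 it was the other way round.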
